A study of Rattus norvegicus with 12 samples.

Results

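Genes of polyamine metabolism were followed in rat liver, 9 in number: Azin1, Odc1, Amd1, Srm, Sms, Sat1, Paox, Oaz1 and Oaz2. Azin1 was chosen because its measured score was higher after each of 3 triazole fungicides. The other 8 genes were chosen by function, with results of these arrays already known, to ask whether synthesis genes of the pathway moved with Azin1. The 9 genes were read by 13 of the 31042 probe sets on the array that are not controls, and all 13 passed the filter on dim probe sets, which kept 21729 probe sets with 11842 named genes. No gene of the 9 was lost. Because Azin1 was chosen for its rise, its scores are given as a description and carry no test.

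Liver RNA of 12 adult male Sprague-Dawley rats was measured, 1 liver per Affymetrix Rat Genome 230 2.0 array. Dosing was by gavage at intervals of 24 h over 72 h, in animals 10 weeks of age, with 3 rats in each of 4 groups. Myclobutanil and propiconazole were both given at 300 mg/kg/day. Triadimefon was given at 175 mg/kg/day. The remaining group served as control, and the labels are silent on what those rats received. Triazoles are antifungal compounds that block sterol demethylation in fungi. No allele or transgene was involved. The values are log-like scores whose base is not stated, so differences are in score units and are not fold changes. To give a sense of the unit, the spike-in cre scored 2.61 units above bioB in the median array (range 2.30 to 3.20), and the 2 are spiked in at amounts far apart. The ± beside a difference is its limma SE, and the ± beside a group mean is the SD over 3 arrays. Precision is limited by the number of arrays: a typical 95% interval spanned 0.141 units on each side (the median of the probe sets tested). Read by their brightest probe sets, the polyamine genes other than Sms had wider intervals. Examples are Odc1 with myclobutanil (0.28 to 0.79) and Sat1 with propiconazole (0.43 to 1.08).

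RNA quality was read from GAPDH, as its 3' score less its 5' score, which was 0.62 ± 0.13 in myclobutanil, 0.43 ± 0.11 in propiconazole, 0.59 ± 0.21 in triadimefon and 0.66 ± 0.25 in control livers. Myclobutanil replicate 01 stood apart, with a deposited array median of 0.157 against 0.0182 to 0.0552 on the other 11 arrays, and a median correlation with other arrays of 0.927 against 0.962 to 0.982. Where a call of a polyamine gene or of a listed gene or marker changed without it, the value without it is given.

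Polyamines are small, positively charged molecules that bind RNA and are needed for growth. Ornithine decarboxylase, the product of Odc1, makes putrescine from ornithine. Srm and Sms encode the spermidine and spermine synthases, which extend putrescine with groups taken from decarboxylated S-adenosylmethionine, made by the product of Amd1. Sat1 and Paox act in the other direction: spermidine/spermine acetyltransferase tags polyamines, and polyamine oxidase splits the tagged forms. Antizymes, encoded by Oaz1 and Oaz2, bind ornithine decarboxylase and send it to the proteasome. Antizyme inhibitor, the product of Azin1, resembles ornithine decarboxylase, lacks its activity and takes up antizyme, which leaves ornithine decarboxylase free. Antizyme is made through a ribosomal frameshift that polyamines favour, and several of these proteins turn over fast, so arrays read only the mRNA side of this control. In liver, ornithine decarboxylase is known for its early climb after partial hepatectomy.

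Promoters of 3 synthesis genes are printed because Odc1, Amd1 and Srm were the synthesis genes whose brightest probe set lay above all control scores after each compound. RefSeq sequences of the GRCr8 assembly were matched for 8 of the 9 genes, and Azin1 was not among them. Each sequence runs from 250 bases before the start listed for its promoter to 20 bases after it, on the gene's strand. For Odc1 and Amd1 this start lies inside the span that RefSeq lists for the gene (46058439-46065148 and 45250289-45324939). The windows lie at chr6:46058415-46058684 (plus strand) for Odc1, chr20:45265963-45266232 (minus strand) for Amd1 and chr5:164308752-164309021 (plus strand) for Srm. Capitals mark a match to 1 of 3 motifs searched on both strands: the E-box CACGTG, which Myc and its partners can bind, the core of the antioxidant response element TGACNNNGC, and the TATA box TATAAA.
Odc1: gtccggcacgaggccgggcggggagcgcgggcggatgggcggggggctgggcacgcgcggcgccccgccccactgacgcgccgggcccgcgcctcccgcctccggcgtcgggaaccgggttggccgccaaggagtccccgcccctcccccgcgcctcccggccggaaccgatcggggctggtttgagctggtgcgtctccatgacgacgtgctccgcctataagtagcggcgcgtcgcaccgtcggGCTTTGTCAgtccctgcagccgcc
Amd1: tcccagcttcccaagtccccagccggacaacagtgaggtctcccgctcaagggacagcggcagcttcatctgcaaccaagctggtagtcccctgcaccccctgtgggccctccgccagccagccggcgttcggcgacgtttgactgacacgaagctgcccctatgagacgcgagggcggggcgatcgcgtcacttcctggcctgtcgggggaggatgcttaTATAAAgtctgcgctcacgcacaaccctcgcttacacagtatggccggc
Srm: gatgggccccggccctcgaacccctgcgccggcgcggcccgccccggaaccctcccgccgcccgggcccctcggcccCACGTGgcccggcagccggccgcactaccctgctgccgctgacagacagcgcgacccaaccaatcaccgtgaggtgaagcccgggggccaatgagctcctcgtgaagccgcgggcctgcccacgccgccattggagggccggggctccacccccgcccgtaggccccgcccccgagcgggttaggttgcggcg

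The Odc1 match is the antioxidant response element core, read on the other strand. It begins 4 bases before the listed start and runs past it. The Amd1 match is a TATA box 29 bases before the start, and the Srm match is an E-box 173 bases before it. The Oaz1 window held all 3 motifs, and the Sms, Sat1, Paox and Oaz2 windows held none of these letters. Each motif was found in 2 of the 8 windows, and the motifs do not overlap each other there. Over 33469 rat promoter windows of the same length, 6.02% held CACGTG, 10.95% held TGACNNNGC and 13.45% held TATAAA. A match describes the sequence and is not evidence of binding.

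Azin1 scores were higher with all 3 compounds on both of its brighter probe sets. On 1370575_a_at the scores were 1.09, 1.08 and 1.09 in myclobutanil livers. They were 1.26, 1.14 and 1.49 in propiconazole livers. In triadimefon livers they were 1.31, 1.41 and 1.26, against 0.72, 0.58 and 0.53 in control livers. Every treated liver lay above every control liver. The differences from control were 0.48 ± 0.090 for myclobutanil, 0.69 ± 0.090 for propiconazole and 0.72 ± 0.090 for triadimefon, in score units. With the mean of the 3 Azin1 probe sets they were 0.24, 0.38 and 0.41. By group mean, triadimefon (1.33 ± 0.074) stood first, then propiconazole (1.30 ± 0.18), myclobutanil (1.08 ± 0.0077) and control (0.61 ± 0.10). The triadimefon and propiconazole livers overlapped, and the doses of these 2 compounds differ. In bulk liver, a change in the share of a cell type and a change in mRNA per cell cannot be told apart, for this gene and for those that follow.

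The second Azin1 probe set, 1370191_at, had scores of 1.16, 0.87 and 0.93 in myclobutanil livers. In propiconazole livers it had 1.18, 0.90 and 1.27. In triadimefon livers it had 1.18, 1.24 and 1.16, against 0.58, 0.58 and 0.48 in control livers. It also separated every treated liver from every control liver, with differences from control of 0.45 ± 0.10, 0.57 ± 0.10 and 0.65 ± 0.10 for myclobutanil, propiconazole and triadimefon. On this probe set the myclobutanil and propiconazole livers overlapped, while on 1370575_a_at all 3 myclobutanil livers lay below all 3 propiconazole livers. The third probe set, 1379003_at, disagreed: its differences were -0.21 ± 0.091, -0.12 ± 0.091 and -0.15 ± 0.091. Its scores lay near the array median, at -0.29 to -0.09 in myclobutanil livers, -0.08 to -0.06 in propiconazole livers, -0.14 to -0.08 in triadimefon livers and -0.12 to 0.31 in control livers. Control replicate 03 alone gave the 0.31, and the treated and control livers overlapped.

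**Figure D1:**
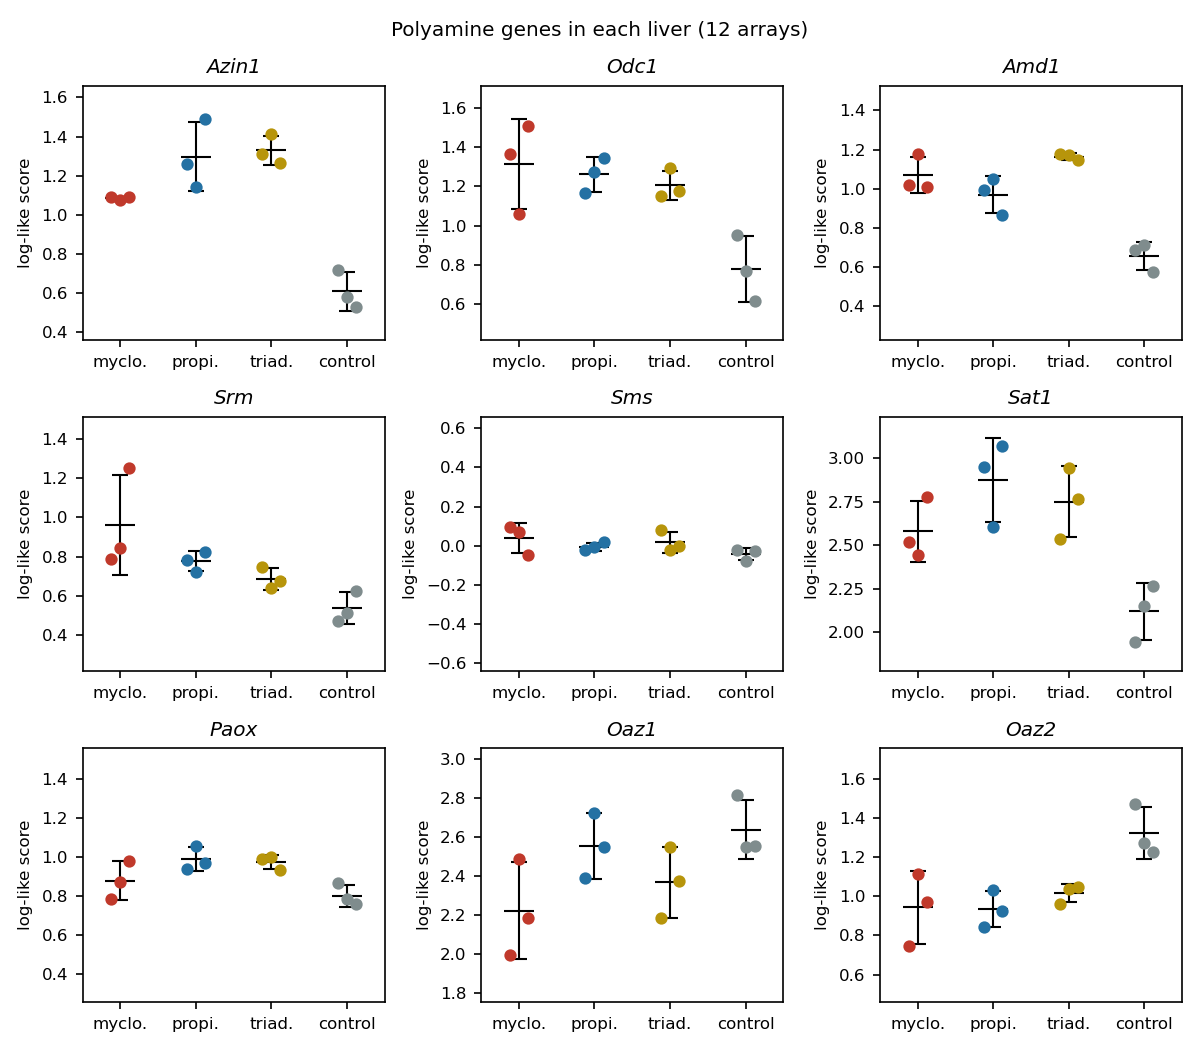
Log-like scores (vertical axes, score units, not from 0) of the 9 genes, each read by its probe set with the highest mean, in 3 livers each of myclobutanil, propiconazole, triadimefon and control. Points are livers, and bars give the group mean ± SD. For Odc1, Amd1, Srm and Sat1 all treated livers lie above all control livers, and for Oaz2 all lie below. They also lie above for Azin1, which was chosen for its rise. For a single compound, 10.2% to 12.5% of all probe sets lie above the controls and 13.1% to 15.8% below. The share of all probe sets that do so with every compound at once was not computed.

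Among the 4 synthesis genes, Odc1 and Amd1 rose with myclobutanil and Amd1 rose with triadimefon. Each of the 4 had a positive difference from control with each compound, and their median difference was 0.42 for myclobutanil, 0.28 for propiconazole and 0.29 for triadimefon, while the medians over all 11842 genes were -0.01, -0.01 and -0.02. The 3 sets of differences use the same 3 control livers, so a low or high control score enters all of them.

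Odc1, which encodes the enzyme that antizyme inhibitor protects, was read by 1370163_at. Its scores were 1.37, 1.06 and 1.51 in myclobutanil livers. They were 1.17, 1.28 and 1.34 in propiconazole livers. In triadimefon livers they were 1.15, 1.29 and 1.18, against 0.95, 0.77 and 0.62 in control livers. All 9 treated livers lay above the highest control liver, and the lowest of them was myclobutanil replicate 02. The rise with myclobutanil was 0.53 ± 0.12 (limma adjusted p = 0.0471). The differences of 0.48 ± 0.12 with propiconazole (limma adjusted p = 0.0763) and 0.43 ± 0.12 with triadimefon (limma adjusted p = 0.144) did not pass. The myclobutanil call stood close to the threshold: it held in 6 of 22 alternative settings, and leaving out any 1 control liver ended it, with limma adjusted p of 0.0693, 0.122 and 0.184.

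Amd1, which encodes S-adenosylmethionine decarboxylase, was read by 1367933_at. Its scores were 1.02, 1.18 and 1.01 in myclobutanil livers. They were 0.99, 1.05 and 0.86 in propiconazole livers. In triadimefon livers they were 1.18, 1.17 and 1.14, against 0.68, 0.71 and 0.57 in control livers. The treated livers again lay above all controls, and the 3 triadimefon livers were the most alike. Amd1 rose by 0.41 ± 0.071 with myclobutanil (limma adjusted p = 0.0214) and by 0.51 ± 0.071 with triadimefon (limma adjusted p = 0.0122). With propiconazole the difference was 0.31 ± 0.071 (limma adjusted p = 0.0604). It was the one gene of the 8 tested that passed the test for any difference among the 4 groups (limma adjusted p = 0.0229), which 1.07% of all probe sets passed. No gene of the 8 passed that test without control replicate 01, 02 or 03. The same held without propiconazole replicate 01 and without triadimefon replicate 01, 02 or 03. Without control replicates 01, 02 and 03 the myclobutanil call ended (limma adjusted p = 0.0641, 0.0641 and 0.104). The triadimefon call ended without control replicate 01 (limma adjusted p = 0.0544), control replicate 03 (0.0701) or triadimefon replicate 02 (0.0595).

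Srm, the spermidine synthase gene, was read by 1367834_at. Its scores were 0.79, 0.84 and 1.26 in myclobutanil livers. They were 0.78, 0.72 and 0.82 in propiconazole livers. In triadimefon livers they were 0.75, 0.64 and 0.67, against 0.47, 0.51 and 0.63 in control livers. The groups did not overlap, but the lowest triadimefon liver and the highest control liver were close, and myclobutanil replicate 03 stood above all other livers. No difference passed: 0.43 ± 0.10 with myclobutanil, 0.24 ± 0.10 with propiconazole and 0.15 ± 0.10 with triadimefon (limma adjusted p = 0.0665, 0.322 and 0.585).

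Sms, the spermine synthase gene, did not pass with any compound. On 1375889_at its scores ran from -0.05 to 0.09 in myclobutanil livers, -0.02 to 0.02 in propiconazole livers, -0.02 to 0.08 in triadimefon livers and -0.08 to -0.02 in control livers. The differences were 0.08 ± 0.042, 0.04 ± 0.042 and 0.06 ± 0.042, and the widest reach of their 95% intervals was 0.17, for myclobutanil. These scores lay near the array median, so the narrow intervals do not show that Sms mRNA was unchanged. The other probe set, 1394243_at, had differences of 0.22 ± 0.078, 0.11 ± 0.078 and 0.09 ± 0.078 (limma adjusted p = 0.148, 0.574 and 0.665), and the score of 0.29 in myclobutanil replicate 01 stood apart from -0.05 and -0.10 in the other 2 livers of that group. On this dimmer probe set all treated livers lay above all control livers. RefSeq lists pseudogenes named after Odc1 (10), Amd1 (3), Sms (2) and Oaz1 (2), so probe sets of these genes may also read near-identical copies and are uncertain in that respect.

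Of the breakdown genes, Sat1 rose with propiconazole. Sat1, read by 1371774_at, had scores of 2.52, 2.44 and 2.78 in myclobutanil livers. In propiconazole livers it had 2.95, 2.60 and 3.07. In triadimefon livers it had 2.54, 2.95 and 2.77, against 1.94, 2.15 and 2.26 in control livers. All treated livers were above all controls. The rise with propiconazole was 0.76 ± 0.15 (limma adjusted p = 0.0323). Differences of 0.46 ± 0.15 with myclobutanil and 0.63 ± 0.15 with triadimefon did not pass (limma adjusted p = 0.118 and 0.0849). The propiconazole call ended without control replicate 01 (limma adjusted p = 0.115), control replicate 02 (0.116), control replicate 03 (0.0895), propiconazole replicate 01 (0.124), propiconazole replicate 03 (0.143) or triadimefon replicate 03 (0.0565). It also ended with the deposited values (0.152) and with median centring (0.132).

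Paox scores on 1372212_at ran from 0.79 to 0.98 in myclobutanil livers, 0.94 to 1.06 in propiconazole livers, 0.93 to 1.0 in triadimefon livers and 0.76 to 0.87 in control livers. The propiconazole and triadimefon livers lay above the controls and the myclobutanil livers overlapped them. The differences of 0.08 ± 0.066, 0.19 ± 0.066 and 0.17 ± 0.066 did not pass (limma adjusted p = 0.515, 0.217 and 0.287). The other 2 genes of the breakdown list did not pass either. Smox, the spermine oxidase gene, stood at 0.23 ± 0.077, 0.11 ± 0.077 and 0.06 ± 0.077 against control with myclobutanil, propiconazole and triadimefon. Sat2, a relative of Sat1, stood at -0.31 ± 0.090, -0.09 ± 0.090 and -0.12 ± 0.090.

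No antizyme gene passed the test. Oaz2, read by 1388454_at, had scores of 0.74, 1.11 and 0.97 in myclobutanil livers. In propiconazole livers it had 0.84, 1.03 and 0.93. In triadimefon livers it had 0.96, 1.04 and 1.05, against 1.47, 1.27 and 1.23 in control livers. The 9 treated livers lay below the lowest control liver, with differences of -0.38 ± 0.10, -0.39 ± 0.10 and -0.31 ± 0.10 (limma adjusted p = 0.0768, 0.0896 and 0.210). The second Oaz2 probe set, 1374129_at, stood at -0.07 ± 0.13, -0.05 ± 0.13 and -0.13 ± 0.13, and its groups overlapped.

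Oaz1, read by 1372241_at, had scores of 2.00, 2.49 and 2.19 in myclobutanil livers. In propiconazole livers it had 2.39, 2.72 and 2.55. In triadimefon livers it had 2.18, 2.55 and 2.37, against 2.81, 2.55 and 2.55 in control livers. Only the myclobutanil livers were clear of the controls. The differences were -0.41 ± 0.14, -0.08 ± 0.14 and -0.27 ± 0.14 (limma adjusted p = 0.139, 0.845 and 0.450). Azin2, the second antizyme inhibitor gene, stood at 0.03 ± 0.043, 0.01 ± 0.043 and -0.03 ± 0.043, and Oaz3, an antizyme known from testis, was among the dim probe sets left out.

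Counted together, 2 of the 8 tested genes rose with myclobutanil, 1 with propiconazole and 1 with triadimefon, and none fell. Over all probe sets 1.82%, 1.43% and 0.769% were called in these comparisons. The counts stand above those shares but rest on 1 or 2 genes, chosen with results of these arrays known. At an unadjusted limma p under 0.05 there were 4 higher and 2 lower with myclobutanil. There were 5 higher and 1 lower with propiconazole, and 4 higher and 1 lower with triadimefon. Over all probe sets 21.1%, 14.5% and 13.4% had such a p in these comparisons, in either direction. The groups did not overlap, with the treated livers higher, for 4, 5 and 5 of the 8 genes, where 10.2%, 12.1% and 12.5% of all probe sets did so. They did not overlap, with the treated livers lower, for 2, 1 and 1 of the 8 genes, where 13.1%, 15.7% and 15.8% of all probe sets did so. The same control livers enter each count. Without myclobutanil replicate 01, Amd1 and Srm rose with myclobutanil (limma adjusted p = 0.0200 and 0.0319) and Odc1 did not pass (0.0657). In that fit, which shares 1 estimate of the spread over all groups, Odc1, Amd1 and Sat1 rose with propiconazole (0.0463, 0.0302 and 0.0211), Oaz2 fell with it (0.0249), and Amd1 rose with triadimefon (0.00704).

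**Figure D2:**
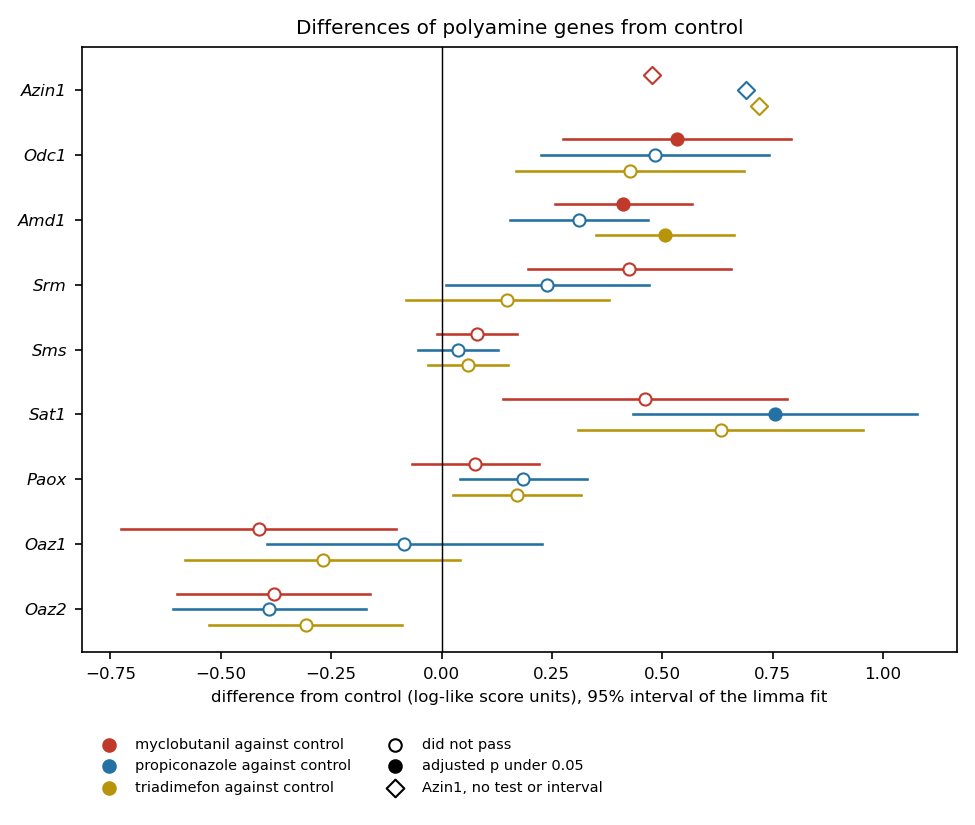
Differences from control (horizontal axis, log-like score units) of the 9 genes for myclobutanil, propiconazole and triadimefon, with the 95% interval of the limma fit where a test was made. Filled circles have a limma adjusted p under 0.05: Odc1 and Amd1 for myclobutanil, Sat1 for propiconazole and Amd1 for triadimefon. Diamonds show Azin1, which carries no test.

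Myclobutanil and propiconazole were given at the same dose and could be compared directly. Myclobutanil carries a nitrile and a butyl chain, and propiconazole carries a dioxolane ring. This was the 1 pair of compounds compared. None of the 8 genes passed, and 0% of all probe sets did in limma, although 2200 probe sets (10.1%) had an unadjusted p under 0.05. The groups of all 8 genes overlapped, where 13.4% of all probe sets had groups that did not. Oaz1 was the one gene with an unadjusted limma p under 0.05 (0.0399), with a difference of -0.33 ± 0.14 (limma adjusted p = 0.486). Sat1 stood at -0.29 ± 0.15 (95% interval -0.62 to 0.03), Srm at 0.19 ± 0.10 (-0.04 to 0.42), Amd1 at 0.10 ± 0.071 (-0.06 to 0.26) and Odc1 at 0.05 ± 0.12 (-0.21 to 0.31). For Sat1 and Srm these intervals leave room for differences of a size like those seen against control. For Amd1 and Odc1 the intervals end short of the differences from control. Those were 0.41 and 0.53 with myclobutanil and 0.31 and 0.48 with propiconazole. The fit does not show that the 2 compounds act alike on these genes. Triadimefon was given at a lower dose, and its values are set beside the others with no comparison.

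Across the 12 livers, Azin1 on 1370575_a_at and the synthesis genes were both low in the control livers. The Pearson correlation with Azin1 over 12 livers was 0.79 for Odc1, 0.78 for Amd1, 0.40 for Srm and 0.41 for Sms. Over the 9 treated livers alone it was -0.05 for Odc1, -0.20 for Amd1, -0.44 for Srm and -0.18 for Sms. For Sat1 it was 0.87 over 12 livers and 0.74 over the 9 treated ones, and for Paox 0.76 and 0.40. Of tested probe sets, 1.34% had a higher correlation over 12 livers than Odc1, 1.7% than Amd1, 15.6% than Srm and 15.2% than Sms. This share was 0.313% for Sat1 and 2.14% for Paox. Because Azin1 was chosen for its rise, any gene with a like rise correlates with it over 12 livers. The values over 9 livers still hold differences between compounds. With each group's mean taken off, over 12 livers, they were 0.48 for Odc1, -0.38 for Amd1, 0.0046 for Srm, 0.10 for Sms, 0.37 for Sat1 and 0.06 for Paox. Oaz2 had -0.70 over 12 livers and 0.02 over 9, and Oaz1 had -0.30 and 0.34. All genes of a liver share its array and its normalization, and these correlations are descriptions over few livers.

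**Figure D3:**
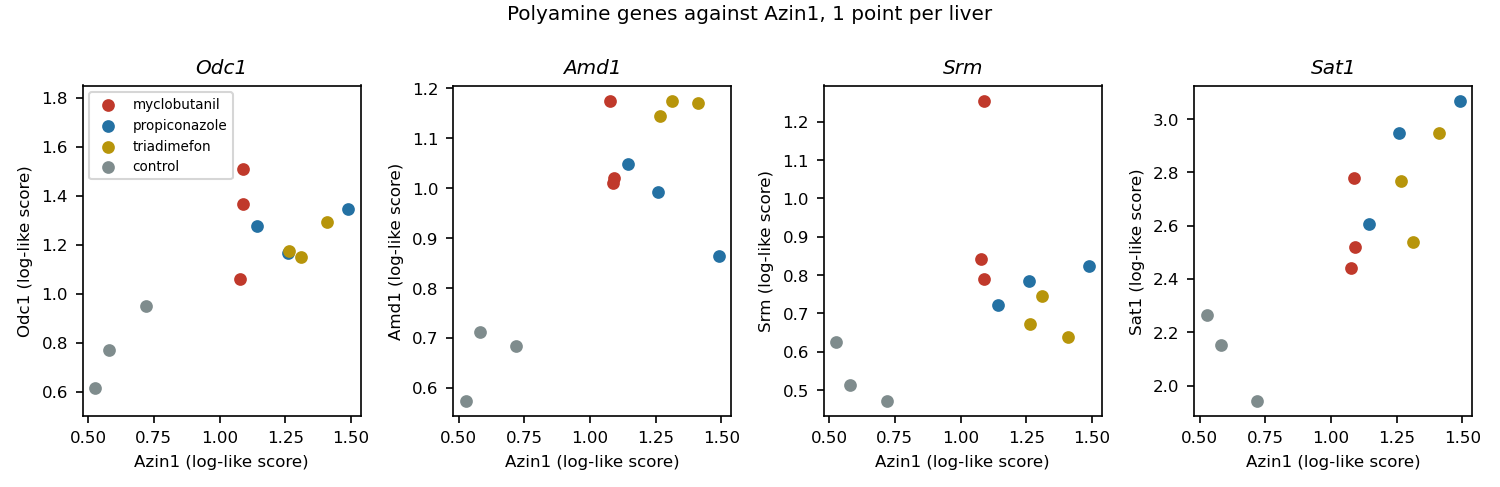
Scores of Odc1, Amd1, Srm and Sat1 (vertical axes) against that of Azin1 (horizontal axes), in log-like score units, 1 point per liver, coloured by group. The 3 control livers lie at the lower left in each panel, and among the 9 treated livers the Pearson correlation with Azin1 is 0.74 for Sat1 and -0.05 for Odc1. With group means taken off it is 0.37 for Sat1 and 0.48 for Odc1.

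The genes most like Azin1 over the 12 livers were Fam32a (Pearson correlation 0.953), Por (0.944), Pfdn2 (0.939), Nup153 (0.938), Cdadc1 (0.933) and Cep43 (0.931). The other bright Azin1 probe set had 0.957. Por encodes the reductase that passes electrons to microsomal P450 enzymes. Nup153 encodes a nuclear pore protein, Pfdn2 a prefoldin subunit and Cep43 a centrosomal protein. For all 6 genes the livers of each treated group lay above the control livers. Por differed from control by 0.64 ± 0.13 with myclobutanil, 1.04 ± 0.13 with propiconazole and 1.24 ± 0.13 with triadimefon. The 6 genes were picked for this likeness, so it carries no test.

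The supply of ornithine and S-adenosylmethionine was described through lists of other pathway genes. Of 10 tested genes of arginine and ornithine supply, Prodh fell with myclobutanil, Oat fell with propiconazole and none passed with triadimefon. The list medians were -0.03, -0.05 and 0.03 for the 3 compounds. Oat encodes ornithine aminotransferase, which links ornithine to glutamate and proline. Its scores were 1.69, 1.56 and 1.30 in propiconazole livers, against 2.37, 2.20 and 2.12 in control livers, a fall of 0.71 ± 0.14 (limma adjusted p = 0.0322). With myclobutanil it stood at -0.53 ± 0.14 and with triadimefon at -0.23 ± 0.14. Prodh, the first enzyme of proline breakdown, had scores of 0.90, 1.08 and 0.76 in myclobutanil livers, against 1.80, 1.73 and 1.67 in control livers. It fell by 0.82 ± 0.14 (limma adjusted p = 0.0176) and stood at -0.61 ± 0.14 with propiconazole and -0.41 ± 0.14 with triadimefon. The Oat call ended without any 1 of the 6 livers compared (limma adjusted p from 0.0663 to 0.134). The Prodh call ended without any 1 control liver or myclobutanil replicate 03 (limma adjusted p from 0.0595 to 0.0719). Without myclobutanil replicate 01, Oat also fell with myclobutanil (limma adjusted p = 0.0428) and Prodh with propiconazole (0.0362).

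Of 7 genes of methionine and S-adenosylmethionine supply, Gnmt fell with myclobutanil and none passed with the other compounds. Gnmt encodes glycine N-methyltransferase, an abundant liver enzyme that uses up S-adenosylmethionine. It had scores of 1.59, 1.75 and 1.18 in myclobutanil livers, against 3.03, 2.77 and 2.66 in control livers, a fall of 1.31 ± 0.18 (limma adjusted p = 0.0113). Its differences were -0.47 ± 0.18 with propiconazole and -0.60 ± 0.18 with triadimefon. Mat2a, named after its values were seen, encodes the S-adenosylmethionine synthetase typical of tissues other than adult liver. Its scores were 1.5, 1.03 and 1.15 in myclobutanil livers. They were 1.30, 1.04 and 1.66 in propiconazole livers. In triadimefon livers they were 1.27, 1.40 and 1.22, against 0.73, 0.75 and 0.75 in control livers. All treated livers lay above all control livers, but the differences of 0.49 ± 0.15, 0.59 ± 0.15 and 0.55 ± 0.15 did not pass (limma adjusted p = 0.110, 0.0871 and 0.137). Without myclobutanil replicate 01, Mat2a rose with propiconazole (limma adjusted p = 0.0296) and triadimefon (0.0469). Of 5 genes that salvage methylthioadenosine, the by-product of spermidine and spermine synthesis, Mtap rose with myclobutanil. Mtap, the phosphorylase that opens this salvage, had scores of 0.89, 0.41 and 0.47 in myclobutanil livers, against 0.08, 0.16 and -0.02 in control livers. Its rise was 0.51 ± 0.10 (limma adjusted p = 0.0370), and myclobutanil replicate 01 gave the highest score. The Mtap call held in 10 of 22 alternative settings, with differences from 0.27 to 0.61. Among fits without 1 liver it held only without myclobutanil replicate 01 (limma adjusted p = 0.0129) or 02, while the Gnmt call held without any 1 of the 12 livers. Mtap stood at 0.26 ± 0.10 with propiconazole and 0.25 ± 0.10 with triadimefon, and passed with both without myclobutanil replicate 01 (limma adjusted p = 0.0180 and 0.0269).

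Of 5 genes that oxidize putrescine, its aldehyde or acetylated polyamines, Aldh1a1 rose with all 3 compounds and the other 4 did not pass with any. Aldh1a1 is a retinaldehyde dehydrogenase that in mouse neurons is known to oxidize the aldehyde made from putrescine, and close paralogs make its probe set uncertain. It had scores of 2.31, 2.56 and 2.21 in myclobutanil livers. In propiconazole livers it had 2.65, 2.54 and 2.27. In triadimefon livers it had 2.38, 2.46 and 2.05, against 1.52, 1.19 and 1.37 in control livers. The rises were 1.0 ± 0.14, 1.13 ± 0.14 and 0.93 ± 0.14 (limma adjusted p = 0.0115, 0.00661 and 0.0146). The propiconazole call held without any 1 liver. The myclobutanil call ended without control replicate 03 (limma adjusted p = 0.0530), and the triadimefon call without any 1 control liver or triadimefon replicates 01 or 02 (limma adjusted p from 0.0513 to 0.0757). The list medians of -0.12, -0.04 and -0.08 had the other sign.

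None of 7 tested polyamine transport genes passed. Slc3a2, a subunit of amino acid exchangers that has been tied to polyamine efflux in human cells, stood at 0.48 ± 0.12 with myclobutanil, 0.52 ± 0.12 with propiconazole and 0.22 ± 0.12 with triadimefon (limma adjusted p = 0.0734, 0.0679 and 0.468). Without myclobutanil replicate 01 it rose with propiconazole (limma adjusted p = 0.0238). Slc12a8 stood at -0.14 ± 0.045, -0.05 ± 0.045 and -0.07 ± 0.045. None of the 3 tested genes of hypusine, the spermidine-derived residue of the translation factor eIF5A, passed. Its hydroxylase gene Dohh stood at -0.01 ± 0.078, 0.16 ± 0.078 and 0.07 ± 0.078, and its synthase gene Dhps at 0.03 ± 0.10, 0.17 ± 0.10 and 0.09 ± 0.10.

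Myc is a known activator of Odc1 transcription. None of the 8 tested genes of the Myc network passed. Myc scores varied widely: 1.26, 0.54 and 0.83 in myclobutanil livers. They were 0.72, 0.09 and 1.29 in propiconazole livers. In triadimefon livers they were 0.55, 1.41 and 0.92, against 0.31, 0.09 and 0.28 in control livers. Propiconazole replicate 02 was within the control range. The differences were 0.65 ± 0.29, 0.47 ± 0.29 and 0.73 ± 0.29 (limma adjusted p = 0.229, 0.495 and 0.303). Mnt, a repressor that shares a partner with Myc, stood at 0.25 ± 0.083, 0.09 ± 0.083 and 0.27 ± 0.083.

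**Figure D4:**
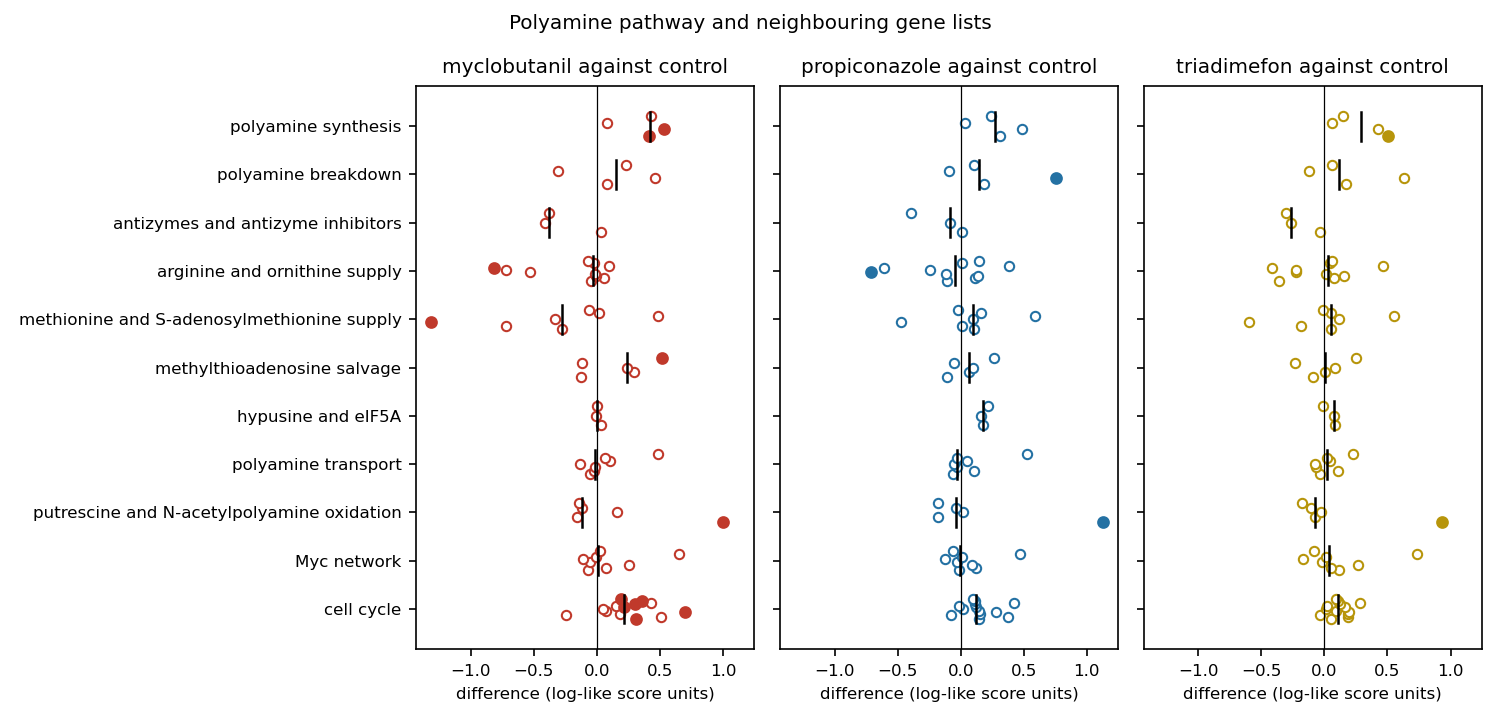
Differences from control (horizontal axes, log-like score units) of the tested genes in 11 gene lists, 1 panel per compound, without Azin1. Points are genes, filled where the limma adjusted p was under 0.05, and black bars are list medians. The synthesis list has all 4 genes to the right of 0 in each panel.

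Of 13 tested cell cycle genes, which mark dividing cells, the difference from control was positive for 12 with myclobutanil, 11 with propiconazole and 12 with triadimefon. The exception with all 3 was Ccnd1, the cyclin D1 gene, at -0.24 ± 0.093, -0.08 ± 0.093 and -0.03 ± 0.093, and it did not pass, although the myclobutanil livers lay below all control livers. Mcm5 was the other one with propiconazole, at -0.01 ± 0.087. The same control livers enter all 3 of these counts. The median differences over all 11842 genes were -0.01, -0.01 and -0.02, and the share of all genes with a positive difference was not counted. The mean score of the 13 genes per array was 0.31 to 0.44 in myclobutanil livers, 0.20 to 0.33 in propiconazole livers, 0.21 to 0.26 in triadimefon livers and 0.08 to 0.13 in control livers. With myclobutanil 6 rose, and none passed with propiconazole or triadimefon. Over all probe sets 1.82%, 1.43% and 0.769% were called with the 3 compounds. Without myclobutanil replicate 01, the call of Top2a ended (limma adjusted p = 0.0530), which left 5, while Mcm2 and Pcna rose with propiconazole (0.0423 and 0.0148) and Ccne1 with triadimefon (0.0457). Among the 6 called, the 4 with the largest differences were the mitotic kinase gene Cdk1 (0.70 ± 0.14), the topoisomerase gene Top2a (0.36 ± 0.072), the cyclin gene Ccnb1 (0.31 ± 0.055) and the proliferation marker Mki67 (0.30 ± 0.049), with limma adjusted p of 0.0344, 0.0388, 0.0239 and 0.0172. The count for myclobutanil was 0 without any 1 of the 3 control livers and 1 without myclobutanil replicate 03. It was 3 without propiconazole replicate 02, 3 without triadimefon replicate 02 and 2 without triadimefon replicate 03. The part of cell division in the scores of Odc1, Amd1 and Srm was not tested.

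Markers of other liver cells moved with myclobutanil too. The summed score of 9 Kupffer cell and macrophage markers was 2.13 to 7.33 in myclobutanil livers, 9.31 to 10.5 in propiconazole livers, 9.14 to 10.5 in triadimefon livers and 9.81 to 11.3 in control livers. With myclobutanil 5 of the 9 fell, led by Clec4f (-1.35 ± 0.22), Cd5l (-1.32 ± 0.28), C1qa (-1.0 ± 0.16) and C1qc (-0.73 ± 0.14), and all 9 fell without myclobutanil replicate 01. Those that passed only without it were C1qb, Cd163, Cd68 and Csf1r (limma adjusted p = 0.0398, 0.0318, 0.0435 and 0.0121). Over all probe sets 1.82% were called with myclobutanil. The count was 0 without any 1 control liver, and 3 and 1 without myclobutanil replicates 02 and 03. Without 1 propiconazole or triadimefon liver it was 2 to 5. With propiconazole and triadimefon none of the 9 passed. Of the hepatocyte markers of the labelled tissue, Alb, the albumin gene, was the brightest probe set on all 12 arrays, so quantile normalization gave it the same score, 4.03, on each. Its deposited values ran from 3.49 to 4.83. The 10 tested markers summed to 30.2 to 32.1 in myclobutanil livers, 32.0 to 32.8 in propiconazole livers, 32.1 to 32.6 in triadimefon livers and 31.3 to 32.3 in control livers, and of them only Apoa1 passed (0.49 ± 0.089 with propiconazole). Without myclobutanil replicate 01, Apoa1 also rose with myclobutanil (limma adjusted p = 0.0171) and triadimefon (0.0396). With all arrays, 8 of the 10 hepatocyte markers had a negative difference with myclobutanil, and Apoa1 was the 1 positive. With propiconazole 4 were positive and 5 negative, and with triadimefon 5 and 4. Of 7 endothelial markers, Kdr fell with myclobutanil (-0.55 ± 0.11) and propiconazole (-0.64 ± 0.11) and Tek with propiconazole (-0.30 ± 0.055). The 7 markers summed to 5.97 to 6.20 in myclobutanil livers, 5.28 to 5.98 in propiconazole livers, 6.10 to 6.66 in triadimefon livers and 6.52 to 7.36 in control livers. The calls of Apoa1, Kdr, Tek and Lrat each ended without at least 2 of the control livers. Of 8 stellate cell markers, Lrat fell with myclobutanil (-0.36 ± 0.069) and propiconazole (-0.40 ± 0.069). None of 3 cholangiocyte and 8 lymphocyte and neutrophil markers passed. A score has no true 0, so no marker can be called absent, and the part of these cells in the polyamine results was not tested.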

How the data were processed

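Total RNA of each liver was labelled with biotin and hybridized to its own array, per the labels' protocols. The deposited value per probe set is a log-like score. How the authors summarised the probes, and on which base and centring, is not given in the sources used. The design had assumed log-scale values, so scores were used without conversion.

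Deposited array medians spanned 0.139, more than a typical SD within groups (0.0736), so quantile normalization was applied. Leaving out 57 control probe sets and the 30% with the lowest mean (9313) left 21729. By the platform's annotation (possibly old), 20826 probe sets had 1 gene, 436 had several and 9780 had none. Symbols of 20758 were updated through RefSeq (GRCr8) and 68 were kept. A gene was represented by its probe set with the highest mean.

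All 12 arrays were fitted on 4 group means with limma (version 3.58.1, R 4.3.3), with an intensity trend and 8 residual degrees of freedom. Benjamini-Hochberg adjustment ran over all tested probe sets, two-sided, and an adjusted p under 0.05 was called. The fit was run on simulated data with independent noise for each probe set and array. That run did not cover deviations shared by probe sets of an array, nor an array that stands apart. It therefore does not vouch for the calls made here. The labels name separate rats, so p-values measure the spread between animals.

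All members are named, up to 4 called genes of each other list (where a list had no call, the 2 lowest p), and the 6 genes most like Azin1. Members and lists were chosen with earlier results of these data known. Alternatives changed the normalization, filter, variance moderation, array weights, block, arrays fitted and probe set choice, and left out each array in turn. With group means taken off, correlations of same-numbered arrays of different groups ran from -0.49 to 0.50 over 18 pairs, 3 of them over 0.1. Over 36 pairs with different numbers they ran from -0.42 to 0.53, 13 of them over 0.1. The numbers thus showed no sign of pairing, though groups of 3 arrays cannot exclude it.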

Additional observations from a re-analysis of the deposited data

How the results depend on the processing

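Differences of the members from control kept their sign in all alternatives, except Oaz1 with propiconazole, which did so in 21 of 22 (0.0036 in the other). The Azin1 differences ran from 0.24 to 0.53 with myclobutanil, 0.38 to 0.77 with propiconazole and 0.41 to 0.79 with triadimefon, the lowest with the mean of its 3 probe sets, 1 of which had the other sign. Calls were less stable. Odc1 passed with myclobutanil in 6 of 22 alternatives (limma adjusted p 0.0141 to 0.228), Amd1 in 17 with myclobutanil (0.00174 to 0.163) and 19 with triadimefon (0.00185 to 0.0701), and Sat1 in 14 with propiconazole (0.00842 to 0.152). The cause was not tested.

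Of the 8 tested members, 2 passed with myclobutanil, but 0 with median centring, 1 without the filter on dim probe sets, 0 with only the groups compared and 0 to 4 with 1 array left out. With propiconazole 1 passed, but 0 with median centring, 2 each with the deposited values, the 50% filter, no trend and only the groups compared, 4 with array weights, and 0 to 4 with 1 array left out. With triadimefon 1 passed, but 4 with array weights, 2 with only the groups compared and 0 to 1 with 1 array left out. In the test for any difference 1 passed, but 5 with array weights and 0 to 2 with 1 array left out.

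Over all probe sets, the 395 calls with myclobutanil became 1668 with array weights, 8 with only the groups compared and 30 to 924 with 1 array left out. The 311 with propiconazole became 1313, 648 and 36 to 969, and the 167 with triadimefon 1028, 621 and 6 to 611. Between myclobutanil and propiconazole the 0 calls became 1 with median centring, 1 with the deposited values, 2 with the 50% filter, 5 with no trend, 343 with array weights and 0 to 29 with 1 array left out. The 233 calls for any difference became 1751 with array weights and 8 to 689 with 1 array left out.

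A replicate block, though the numbers showed no sign of pairing, gave 1 member with myclobutanil. Over all probe sets it gave 180, 121 and 87 calls with myclobutanil, propiconazole and triadimefon and 59 for any difference. The alternatives for genes of the other lists were chosen after seeing the data, and none turned a called direction.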
